A study of Mus musculus with 10 samples.

Results

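The T cell receptor gene segments on this array are 21 probe sets, of 41345 in all, whose every platform symbol names a variable, joining or constant segment of a receptor chain. Each of the 21 had 1 symbol, and all were named for variable segments: 18 of the alpha chain, 1 of the beta chain, 2 of the gamma chain and 0 of the delta chain. The data compared 4 arrays of Flattop-expressing intestinal crypt cells with 6 arrays of Lgr5-high intestinal stem cells, all measured on Affymetrix MoGene 2.0 ST arrays. The Flattop cells came from FltpT2AiCre mice crossed with Gt(ROSA)26mTmG, on a mixed C57BL/6J, CD1 and 129/SvJ background, and Cre in them is driven from the Flattop gene (Cfap126). The membrane reporter at ROSA26 marks cells in which Cre has acted and their descendants. Lgr5-high cells were taken from C57BL/6J mice that carry the Lgr5-EGFP-IRES-creERT2 allele. All mice were 3 to 6 months old and all cells were sorted by flow cytometry. Group, genotype and strain coincide and cannot be told apart, and the segment loci themselves can differ between strains. The labels do not tie replicates to different animals, so every p-value here rests on a spread between samples that may be technical.

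A T cell receptor is either an alpha chain paired with a beta chain or a gamma chain paired with a delta chain. While a T cell develops, the RAG recombinase joins a variable to a joining segment (with a diversity segment between them in beta and delta), and splicing adds a constant segment. A T cell therefore transcribes a productive chain from few of the many variable segments in its genome, and the segments in use differ from clone to clone. The receptor reaches the surface only with the CD3 subunits, which carry its signal. The intestinal epithelium holds intraepithelial lymphocytes of both receptor kinds, many of which carry the CD8 alpha homodimer. The mouse alpha locus contains the delta locus and has a duplicated variable cluster, so several alpha variable segments have near-identical copies, and some, named -dv, can also join delta segments.

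By symbol, the probe sets name a small part of the receptor loci. RefSeq (assembly GRCm38.p6) lists 270 genes that meet the same naming rule. Of these, 8 had a probe set under their symbol: 5 of 192 alpha, 1 of 52 beta, 2 of 16 gamma and 0 of 10 delta genes. The 16010 probe sets without a listed symbol were not examined for these loci. The delta chain and all constant segments were not analysed here under symbols of their own. The 18 alpha probe sets carried 5 symbols: 6 were named Trav12-2, 5 Trav9d-3, 3 Trav7-4, 3 Trav14d-3-dv8 and 1 Trav3-4. Among them 2 pairs of Trav12-2 probe sets had identical values on every array, so the 21 probe sets held 19 distinct sets of values. Because of the near-identical copies, each value is uncertain as to the segment that was detected. Probe sequences were not used here, so whether a probe set named for a variable segment also reads constant segments is not known. A further probe set named A430107P09Rik and Trav3n-3 fell outside the naming rule and differed by 0.34 (SE 0.17, limma adjusted p = 0.646).

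Values are log2 intensities, and the median of all values on the 10 arrays was 4.70. Array medians lay between 4.56 and 4.77 and lower quartiles between 3.59 and 3.84. Since no detection calls were used here, the size of a difference whose low side lies near these values is uncertain. The number of arrays limits the precision. Lgr5 was at 9.19, 9.65, 6.44 and 8.21 in Flattop replicates 1 to 4 and between 8.99 and 9.90 in Lgr5-high arrays. Cfap126 was at 4.67, 4.93, 6.20 and 5.89, against 4.56 to 5.59. Neither passed the test between groups, and the Cfap126 values of Flattop replicates 1 and 2 lay inside the Lgr5-high range.

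Alpha chain probe sets were the only members called, and both were higher in the Flattop arrays. Of the 21 probe sets, 2 rose and 0 fell in limma at an adjusted p under 0.05, where 0.389% of all probe sets rose and 0.0145% fell. Both belonged to the 18 alpha probe sets, while the 1 beta and the 2 gamma probe sets did not pass. At an unadjusted p under 0.05, 5 members were higher (4 alpha, 1 beta) and 0 lower, where 4.37% and 3.72% of all probe sets were. In 2 members the groups did not overlap with Flattop higher and in 0 with Flattop lower, against 1.42% and 0.96% of all probe sets. The median difference of the 21 was 0.10, against -0.08 over all probe sets, since most members hardly differed and 5 were higher by at least 1 on the log2 scale (3.71% of all probe sets). Members were chosen by name, not by their values, but with earlier results of these data known. In these bulk samples more cells of a type and more RNA per cell cannot be told apart.

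**Figure D1:**
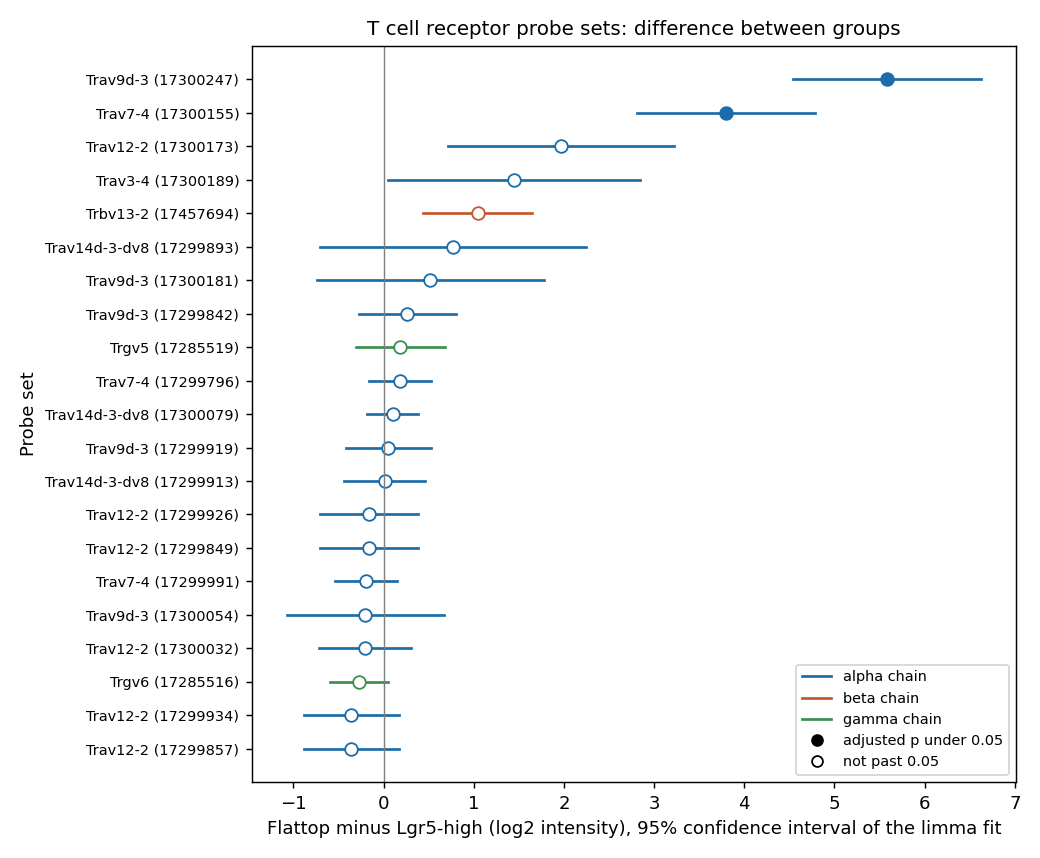
Difference between Flattop and Lgr5-high arrays for the 21 T cell receptor probe sets, as log2 intensity on the horizontal axis, with symbol and probe set number on the vertical axis. Points are limma estimates, lines their 95% confidence intervals, colours the chains, and filled points an adjusted p under 0.05. Of the 21, 2 alpha probe sets are filled, at 5.58 and 3.80, and the other 19 are open.

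The strongest signal came from 1 of the 5 probe sets named for Trav9d-3, an alpha variable segment. Which segments its probes read, and whether constant segments are among them, was not tested. Probe set 17300247 read 8.97, 9.76, 11.42 and 11.60 in Flattop replicates 1 to 4. In the Lgr5-high arrays its lowest value was 4.69, its median 4.86 and its highest 4.995. All Flattop arrays lay far above all Lgr5-high arrays, which lay close together (SD 0.14, n = 6, against 1.28 in Flattop, n = 4). It rose by 5.58 on the log2 scale (SE 0.47, limma adjusted p = 0.00055), which is 48.0-fold with a 95% interval of 23.3 to 98.8. The difference was 4.54 within sample title numbers 1 to 8 (limma adjusted p = 0.0286) and 6.63 within numbers 38 to 46 (limma adjusted p = 0.00452), and it was the 1 member called in either range, where 0.106% and 0.128% of all probe sets rose. The labels do not say what these numbers mark. The interaction of group and number range did not pass (2.09, limma adjusted p = 0.267), nor did that of any other member (0.0218% of all probe sets passed).

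The other 4 Trav9d-3 probe sets did not pass. Their differences were 0.52, 0.26, 0.05 and -0.21, so probe sets under this symbol ran from -0.21 to 5.58. Probe set 17300181 (0.52, SE 0.57, limma adjusted p = 0.801) read 6.26 in Flattop replicate 2 and 3.41, 3.07 and 3.44 in replicates 1, 3 and 4. The last 3 lay within the Lgr5-high range of 3.08 to 4.23 or just below it, and replicate 2 stood more than 1 above that range.

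Trav7-4, another alpha variable segment, gave the second call. Probe set 17300155 read 5.59, 6.90, 8.32 and 6.18 in Flattop replicates 1 to 4. In the Lgr5-high arrays it ran from 2.64 through a median of 2.87 to 3.29, under the lower quartile of every array. No Flattop array overlapped these values. It rose by 3.80 (SE 0.44, limma adjusted p = 0.00443), or 13.9-fold with a 95% interval of 7.04 to 27.6, a size that is uncertain because of the low Lgr5-high values. The call was lost within title numbers 1 to 8 (3.29, limma adjusted p = 0.165) and within 38 to 46 (4.31, limma adjusted p = 0.220). The other 2 Trav7-4 probe sets were at 0.18 and -0.19 and did not pass.

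In 3 further members the difference was at least 1 without passing over all probe sets. Trav12-2 probe set 17300173 read 8.55, 6.17, 9.38 and 6.76 in Flattop replicates 1 to 4, with Lgr5-high values from 5.33 through a median of 5.66 to 6.22. Replicates 1 and 3 stood well above the Lgr5-high range, replicate 4 a little above it and replicate 2 inside it. Its difference was 1.97 (SE 0.56, limma adjusted p = 0.316), and the other 5 probe sets named Trav12-2 lay between -0.36 and -0.16.

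Trav3-4, also an alpha variable segment, was highest in Flattop replicate 1. Its probe set 17300189 read 6.67, 2.97, 4.20 and 3.00, against 2.55 to 3.02 with a median of 2.74 in the Lgr5-high arrays. Replicate 1 stood highest, replicate 3 between, and replicates 2 and 4 inside the Lgr5-high range. The difference of 1.44 (SE 0.63, limma adjusted p = 0.608) was 0.63 without Flattop replicate 1.

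Trbv13-2, the only beta chain member, encodes a variable segment common among mouse alpha-beta T cells. Its probe set 17457694 read 4.93, 3.67, 5.14 and 4.88 in Flattop replicates 1 to 4, and from 3.22 through a median of 3.63 to 3.88 in Lgr5-high arrays. Replicates 1, 3 and 4 lay at least 1 above the Lgr5-high range, and replicate 2 lay inside it. The difference was 1.04 (SE 0.27, 95% interval 0.44 to 1.65) and did not pass over all probe sets (limma adjusted p = 0.243). Without Flattop replicate 2, the only Flattop array inside the Lgr5-high range, it was 1.37 and passed (limma adjusted p = 0.00976). That was the 1 of 21 alternatives in which it passed, and the limma adjusted p reached 0.710 within title numbers 1 to 8. The Lgr5-high mean of 3.61 lay within the array lower quartiles (3.59 to 3.84), so the size is uncertain.

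The gamma chain members were Trgv5 and Trgv6. In the nomenclature used here, Trgv5 is the segment of epidermal gamma-delta T cells and Trgv6 that of gamma-delta cells of other tissues such as the uterus and tongue, whereas intestinal gamma-delta lymphocytes use mostly other gamma segments. Trgv5 probe set 17285519 read 3.60, 3.78, 4.59 and 4.66 in Flattop replicates 1 to 4, against 3.77 to 4.15 with a median of 3.997 in Lgr5-high arrays. Replicates 3 and 4 were above the Lgr5-high range by less than 1, and replicate 1 was below it. The difference of 0.19 (95% interval -0.30 to 0.68, limma adjusted p = 0.814) was -0.29 within title numbers 1 to 8 (limma adjusted p = 0.708) and 0.66 within 38 to 46 (limma adjusted p = 0.534).

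Trgv6 probe set 17285516 read 3.84, 3.45, 3.80 and 3.54, against 3.71 to 4.19 with a median of 3.88. The groups overlapped, and the difference was -0.27 (95% interval -0.59 to 0.05, limma adjusted p = 0.675). Both gamma means lay below the median of all values in both groups. Over all arrays, the upper ends of the 95% intervals were 1.60-fold for Trgv5 and 1.04-fold for Trgv6. Because the gamma values lie near the array lower quartiles (3.59 to 3.84), these ends do not firmly limit a change in gamma transcripts.

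Trav14d-3-dv8, the alpha member that can also join delta segments, had 3 probe sets, and 0 passed. The widest spread was in probe set 17299893, which read 5.66, 4.63, 7.93 and 4.59 in Flattop replicates 1 to 4 and from 3.86 through a median of 4.83 to 6.23 in Lgr5-high arrays. Only replicate 3 lay above the Lgr5-high range. The difference was 0.77 (SE 0.66, limma adjusted p = 0.758), and it was 0.03 without Flattop replicate 3. The other 2 probe sets were at 0.01 and 0.10. In all, 16 members differed by less than 1, 8 of them above and 8 below 0, from -0.36 to 0.77, with limma adjusted p of 0.675 to 0.990. Those below 0 include both pairs of Trav12-2 probe sets with identical values.

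The Flattop arrays differed among themselves in which probe sets stood out. In 7 of the 21 members at least 1 Flattop array lay at least 1 above the highest Lgr5-high array, where 5.82% of all probe sets did. There were 5 such members in Flattop replicate 1, 3 in replicate 2, 6 in replicate 3 and 3 in replicate 4, against 1.61%, 1.71%, 2.78% and 2.31% of all probe sets. Trav9d-3 (17300247) and Trav7-4 (17300155) met this in all 4 Flattop arrays. Trbv13-2 met it in 3 arrays, Trav12-2 (17300173) and Trav3-4 in 2, and Trav14d-3-dv8 (17299893) and Trav9d-3 (17300181) in 1 each.

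The spread itself was larger in Flattop for 18 of the 21 members, where 45% of all probe sets had the larger SD in Flattop. These 18 include both pairs of Trav12-2 probe sets with identical values. The median SD of the members was 0.47 in Flattop and 0.23 in Lgr5-high arrays, against 0.30 and 0.32 over all probe sets. The highest Flattop array was replicate 1 for Trav3-4, replicate 2 for Trav9d-3 (17300181), and replicate 3 for Trav7-4 (17300155), Trav12-2 (17300173), Trav14d-3-dv8 (17299893) and Trbv13-2. It was replicate 4 for Trav9d-3 (17300247), little above replicate 3. These counts are descriptions chosen after the values were seen.

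**Figure D2:**
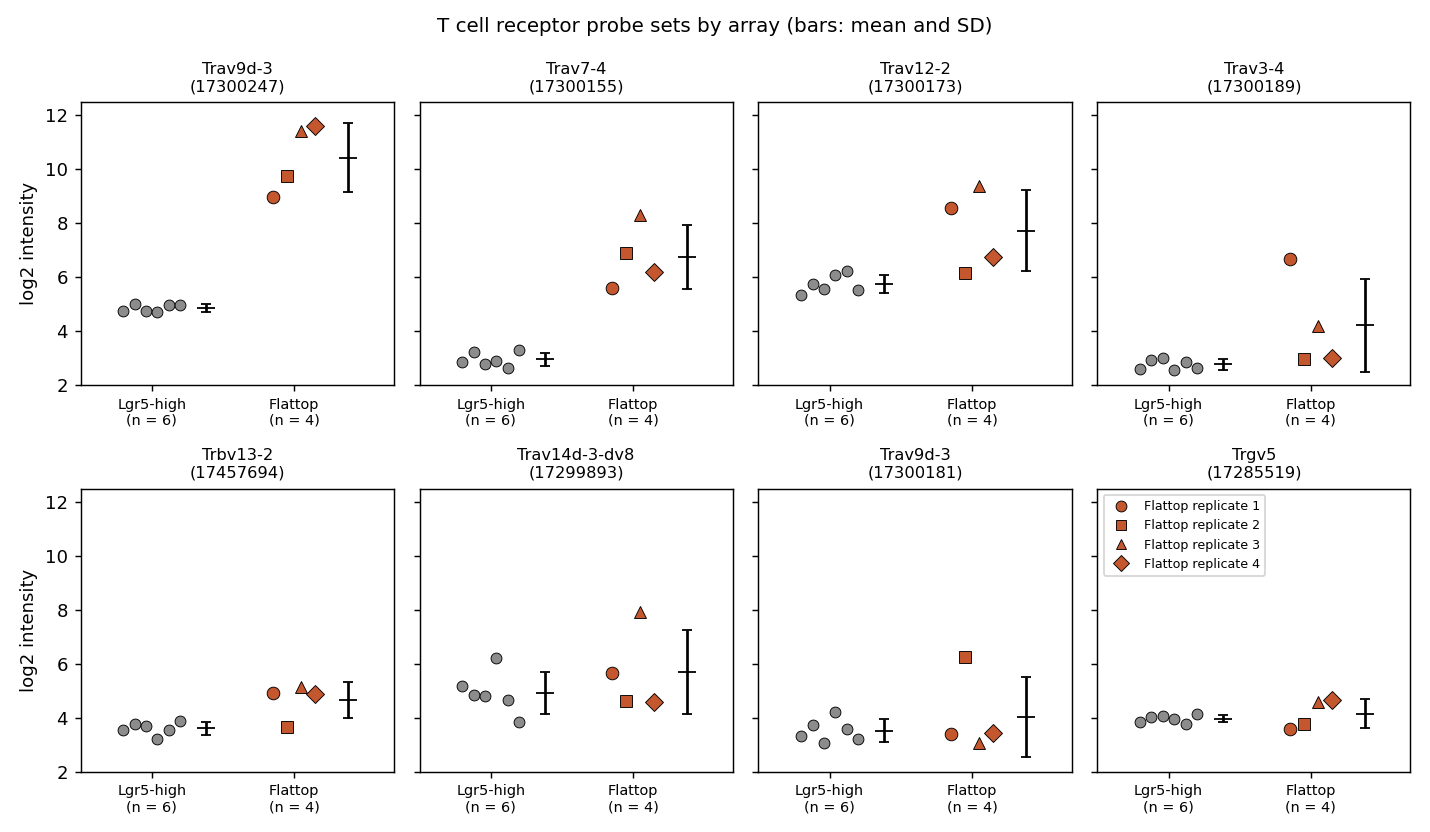
Values by array of the 7 T cell receptor probe sets with at least 1 Flattop array 1 or more above the highest Lgr5-high array, and of Trgv5. The vertical axis is log2 intensity, grey circles are the 6 Lgr5-high arrays, coloured symbols the 4 Flattop replicates, and bars the mean and SD of each group. Trav9d-3 (17300247) and Trav7-4 (17300155) separate all arrays of the groups, Trav3-4 is highest in replicate 1 (6.67), and Trav9d-3 (17300181) in replicate 2 (6.26).

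The chains were also summarised by the mean log2 level over their probe sets. The alpha mean was 5.25, 5.17, 5.92 and 5.36 in Flattop replicates 1 to 4, against 4.699 ± 0.147 (SD, n = 6) for Lgr5-high. That mean does not describe the chain as a whole. Of its 18 probe sets, 14 differed by less than 1, while the 2 called were at 5.58 and 3.80. The gamma mean was 3.72, 3.62, 4.20 and 4.10 in Flattop replicates 1 to 4, which overlapped the Lgr5-high mean of 3.95 ± 0.15 (SD, n = 6). The median difference was 0.08 for alpha, 1.04 for the single beta probe set and -0.04 for gamma. The alpha median was -0.07 within title numbers 1 to 8, and the gamma median was 0.03 after a second quantile normalisation, 0.02 after centring and 0.13 within title numbers 38 to 46. The chains differ in how many probe sets represent them, and the difference between chains was not tested.

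Genes of the receptor complex and its signalling were measured for 16 of 20 listed genes. Of the 16, 5 rose, 0 fell and 11 did not pass in limma over all probe sets (background 0.389% rose), with a median difference of 1.30. The CD3 subunits, without which no receptor chain reaches the surface, all rose: Cd3g by 6.43 (SE 0.39, limma adjusted p = 8.2e-05), Cd3e by 5.30 and Cd3d by 4.28. Cd3e read 8.64, 9.15, 11.63 and 10.70 in Flattop replicates 1 to 4, against 4.14 to 5.21 in Lgr5-high arrays. Replicates 3 and 4 were the highest for Cd3e and Cd3g, as they were for Trav9d-3 (17300247). Cd3d missed the threshold within either title range (limma adjusted p = 0.108 and 0.0895).

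Among coreceptors, Cd8a rose and the others did not pass. Cd8a read 8.98, 8.76, 9.25 and 10.52 in Flattop replicates 1 to 4 and 5.32 to 5.63 in Lgr5-high arrays, a difference of 3.89 (SE 0.30, limma adjusted p = 0.000332), which missed within title numbers 38 to 46 (adjusted p = 0.0733). Cd8b1, whose product pairs with CD8 alpha on conventional cytotoxic T cells, read 4.31, 4.58, 9.03 and 4.60, against 4.06 to 4.71. Only replicate 3 stood above the Lgr5-high range, and the difference of 1.28 did not pass (SE 0.82, limma adjusted p = 0.709). Cd4, the helper coreceptor, was between 4.43 and 4.50 in Flattop and between 4.39 and 5.28 in Lgr5-high arrays (-0.13, limma adjusted p = 0.832).

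Genes of signalling proteins lay above the Lgr5-high range in some or all Flattop arrays, with 1 call. Fcer1g, a signalling chain that can stand in for CD3 zeta and also serves Fc receptors, rose by 3.62 (SE 0.57, limma adjusted p = 0.0262). That call was lost without any single Lgr5-high array (0.0582 to 0.0724) and without Flattop replicate 2 (0.0910) or 4 (0.0867). It was lost within title numbers 1 to 8 (0.394) and 38 to 46 (0.126) too. The adaptor Lcp2 was at 2.33 (limma adjusted p = 0.0738), and the groups did not overlap. It passed 0.05 in 5 of 22 alternatives, among them without Flattop replicate 1 (limma adjusted p = 0.00696), blocked on title number range (0.0291) and after centring (0.0434).

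The kinases Fyn and Zap70 were at 1.43 and 1.31 and the adaptors Lat and Trat1 at 1.14 and 0.95, none past the threshold (limma adjusted p 0.327 to 0.618). For Fyn, Lat and Trat1 the order of the Flattop arrays began with replicate 3, and replicate 1 was the lowest for Fyn, Zap70, Lat, Trat1 and Lcp2. By contrast, Trav3-4 was highest in replicate 1 (6.67). Genes active while receptors are assembled did not pass: the recombinase gene Rag2 was at -0.05, the terminal transferase gene Dntt at -0.14, and Ptcra, the partner of beta before alpha is made, at -0.36 (limma adjusted p 0.697 to 0.948). Cd28, the costimulatory receptor, was at -0.25 (limma adjusted p = 0.657).

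**Figure D3:**
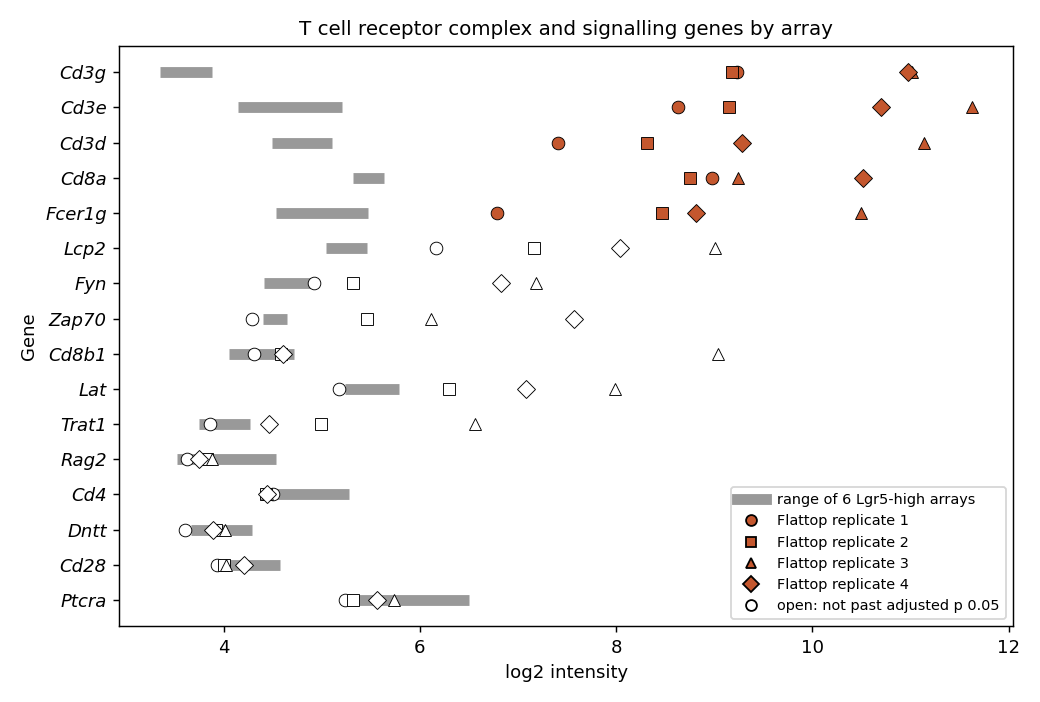
Log2 intensity (horizontal axis) of the 16 measured receptor complex and signalling genes (vertical axis). Grey bars span the 6 Lgr5-high arrays, symbols are the 4 Flattop replicates, and filled symbols mark genes with an adjusted p under 0.05. Cd3g, Cd3e, Cd3d, Cd8a and Fcer1g are filled, and Cd8b1 is high in replicate 3 only (9.03).

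Marker lists of other cell types were read beside the receptor segments. Of 7 measured T cell markers 3 rose, the CD3 genes already counted above, where 0.389% of all probe sets rose. The list mean was 6.28 to 8.09 in Flattop and 4.62 to 4.82 in Lgr5-high arrays. Among its other genes, Lat was at 1.14, and Cd5 and Cd6, surface regulators of T cells, were at -0.02 and 0.01. Cd28 was at -0.25. Of 6 markers linked to alpha-beta T cells, a list that also holds Cd5, Cd6 and Cd28, 1 rose (Cd8a) and 5 did not pass. Cd8a is not particular to alpha-beta cells, since intraepithelial lymphocytes of both receptor kinds can carry the CD8 alpha homodimer. Of 5 measured genes linked to gamma-delta T cells, 1 rose, the transcription factor Maf by 4.45 (limma adjusted p = 0.00131), and the other 4 lay between -0.32 and -0.04. Maf is also expressed outside T cells. Means of B cell markers were 3.98 to 4.27 in Flattop and 4.07 to 4.42 in Lgr5-high arrays, with 0 of 6 called. Means of natural killer cell markers were 3.90 to 4.39 and 4.07 to 4.38, with 0 of 5 called. At an unadjusted limma p under 0.05, 1 B cell gene was higher and 0 natural killer cell genes were. Over all probe sets, 4.37% were higher and 3.72% lower at that level. Myeloid means were 4.46 to 5.04 and 4.34 to 4.89, with 0 of 5 called (1 higher and 1 lower unadjusted).

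Epithelial markers averaged 9.83 to 10.67 in Flattop and 9.23 to 9.66 in Lgr5-high arrays, with 1 of 6 called (Krt20). Krt20 rose by 4.48 and Vil1 was at 0.62, the 2 that were higher at an unadjusted limma p under 0.05 (4.37% of all probe sets). The others were Krt8 at 0.55, Cldn7 at 0.08, Epcam at 0.01 and Cdh1 at -0.15, so the list mean rests largely on Krt20. Stem cell markers averaged 8.61, 8.90, 7.57 and 8.01 in Flattop replicates 1 to 4 and 8.70 to 9.10 in Lgr5-high arrays, with 0 of 5 called in limma and 3 lower at an unadjusted p under 0.05. Among the Flattop arrays, replicate 3 had the lowest epithelial and stem cell means and the highest T cell mean (8.09). The part of these lists in the values of the receptor segments was not tested.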

How the data were processed

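RNA from sorted cells (miRNeasy Micro kit) was amplified with Ovation Pico WTA V2 and labelled with the Encore Biotin module, per the labels' protocols. Each deposited value is the log2 intensity of a probe set, made by the authors with robust multi-array averaging (RMA) in oligo 1.38.0, per the submitters' processing notes. The order of these steps, the genome build and further filters were not given in the sources used here. The log2 scale also rests on the range of the values (2.01 to 14.12).

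All 41345 probe sets were fitted without a filter in limma 3.58.1 (lmFit and eBayes, R 4.3.3), as Flattop minus Lgr5-high in two-sided tests at a threshold of 0.05 after Benjamini-Hochberg adjustment over the whole table. The fit was tested on simulated data. Names came from the platform annotation, in which 23521 probe sets had 1 symbol, 1814 several and 16010 were not listed, and all 21 members matched RefSeq by Entrez number. For a listed gene the probe set with the highest mean was taken, and 4 receptor complex genes were not matched. The members and lists were chosen with earlier results of these data known. Named were gamma members, up to 8 alpha and 8 beta members of smallest p and 3 of lowest difference, and all receptor complex genes. Other members named here (Trav9d-3 probe set 17300181 and the remaining Trav9d-3, Trav7-4, Trav12-2 and Trav14d-3-dv8 probe sets) were added after their values were seen. Sequences of the segments were not used here, and the planned search of their promoters was not run. Plots were drawn with matplotlib 3.10.9.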

Additional observations from a re-analysis of the deposited data

Results flagged for a closer look

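In groups of 4 or 6 arrays, 70 sets of values of receptor segments and receptor complex genes were examined for an array far from the others, by Dixon's 95% limit on the gap as a share of the range. Chance gives about 1 in 20, or 3.5, and 4 were found. Trav9d-3 probe set 17300181 read 6.26 in Flattop replicate 2, with the other Flattop arrays at 3.07 to 3.44. Cd8b1 read 9.03 in Flattop replicate 3, with the others at 4.31 to 4.60. Cd4 read 5.28 in Lgr5-high replicate 2, with the others at 4.39 to 4.51. Rag2 read 4.54 in Lgr5-high replicate 6, with the others at 3.53 to 3.89. What set these arrays apart was not tested.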

How the results depend on the processing

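Other settings tried were a second quantile normalisation, centring on array medians, removal of probe sets under the 40th percentile of mean intensity (which kept 12 of the 21 members), a trended and robust prior, array weights, blocks, title ranges alone, each array left out, probe sets with a symbol only, probe sets with 1 symbol only, a threshold of 0.1 and a 2-fold minimum. Counting identical probe sets once was added after seeing the data and gave 2 of 19. The count of 2 called members (2 alpha) fell to 1 (1 alpha) within title numbers 1 to 8 and to 1 (1 alpha) within 38 to 46. The 5 called receptor complex genes became 3 and 2 there. They were 6, with Lcp2, after centring, without dim probe sets, blocked on title number range, over probe sets with a symbol, at a threshold of 0.1 and without Flattop replicate 1, and 4 to 6 with an array left out. With a replicate block, all of these counts were 0. Same-numbered arrays deviated together in 1 of 4 pairs (correlation of deviations 0.18, against -0.13, 0.004 and 0.01 in the others), and 1 of 4 Flattop arrays correlated best with its own number, so the numbers were not taken as pairs. With each array left out in turn, 2 members remained called in every case except that Trbv13-2 was added without Flattop replicate 2. The replicate block gave Trav9d-3 (17300247) 5.65 (limma adjusted p = 0.111, the range over its alternatives being 0.000131 to 0.111) and Trav7-4 (17300155) 3.81 (0.215, range 0.000995 to 0.220). The fits within a range used fewer arrays, and the replicate block left fewer degrees of freedom. The cause of these losses was not tested.

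Among named members and receptor complex genes, signs turned for differences that never passed: within title numbers 1 to 8 for Trgv5 (-0.29) and Cd8b1 (-0.082, against 1.28 over all arrays), within 38 to 46 for Trav12-2 probe set 17300032 (0.11) and Dntt (0.052), and for Rag2 after quantile normalisation (0.026), centring (0.008) and the replicate block (0.085). With an array left out, Cd4 ran from -0.17 to 0.0027 and Rag2 from -0.11 to 0.0905. The gamma median then ran from -0.14 to 0.05, above 0 without Lgr5-high replicate 6 or Flattop replicates 1 or 2. Gene means over several probe sets were not run, since each receptor complex gene had 1 probe set. Signal over background was not used here.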

Other observations

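Immunoglobulin segments, the receptors of B cells, were read in the same way, a set chosen after the data were seen. Of 34 probe sets named only for immunoglobulin heavy, kappa or lambda segments, 1 rose and 0 fell in limma. Over all probe sets, 0.389% rose and 0.0145% fell. The median difference of the 34 was 0.04. The one that rose was an Ighm probe set (17284349), named for the heavy chain constant region of IgM, which read 7.93, 7.25, 8.72 and 8.71 in Flattop replicates 1 to 4 and 4.72 to 5.38 in Lgr5-high arrays (difference 3.16, SE 0.29, limma adjusted p = 0.000968). A kappa segment probe set with several symbols (17459423) read 7.13, 8.19, 4.90 and 7.60 in Flattop, against 4.46 to 5.17, and did not pass (2.27, SE 0.53, limma adjusted p = 0.174). In 4 of the 34 at least 1 Flattop array lay at least 1 above the highest Lgr5-high array, where 5.82% of all probe sets did. The other Ighm probe sets with 1 symbol lay between -0.21 and 0.68. B cell markers were at 3.98 to 4.27 in the same Flattop arrays, and their part was not tested.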
